A study of Mus musculus with 30 samples.

Results

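H3K4me3 is the trimethylated form of lysine 4 of histone H3, a mark that sits on nucleosomes at the starts of genes. The regions described here are 702 of the 1331 H3K4me3 regions listed as specific to Mir137 cKO microglia, 52.7% of that list (exact Clopper-Pearson 95% interval 50.02 to 55.5%, counting error only) and 702 of the 22399 regions in the 10 lists. Each overlaps the 2 kb on either side of an end of a protein-coding gene and overlaps no region of the 4 lists for RNA polymerase II (Pol II) or its serine-5-phosphorylated form (Pol II Ser5P). The sites were thus chosen by overlap of the listed positions themselves, so the position at gene ends and the missing polymerase are how the sites were chosen and not a result. They are called cKO polymerase-free sites below, where polymerase-free means only that no listed polymerase region overlaps.

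Microglia are the resident macrophages of the brain. They were sorted from 8-week-old C57BL/6J mice given tamoxifen on 7 days. The cKO mice had loxP sites around both copies of Mir137 and the cWT mice had Mir137+/+, and both carried Tmem119-CreERT2, a tamoxifen-activated Cre recombinase driven from a microglial gene. About 100000 cells per genotype went into CUT&Tag, in which an antibody brings a transposase to the chromatin it binds, with antibodies to H3K4me3, H3K27ac, Pu.1, Pol II and Pol II Ser5P (30 samples in 10 groups of 3 replicates). Nothing in the labels ties a replicate to a mouse of its own.

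In general, H3K4me3 is laid down by methyltransferase complexes that bind CpG-rich DNA or the tail of the polymerase, and it marks promoters that are active or ready to be used. Serine 5 of the polymerase tail is phosphorylated as transcription starts, and H3K27ac marks active promoters and enhancers. Pu.1, encoded by Spi1, is the ETS-family transcription factor that specifies myeloid cells, and in microglia it binds promoters and enhancers of lineage genes.

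Mir137 encodes the microRNA miR-137, whose -3p arm is shown because its loss defines the cKO cells. Its seed (bases 2 to 8) is in capitals and the sequence is from RefSeq (GRCm38.p6).
mmu-miR-137-3p: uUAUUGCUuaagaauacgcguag
Mir137 lies on chromosome 3, and the nearest cKO polymerase-free site was 1074 kb away, beside Plppr4, so these sites give no reading of the deletion itself.

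The lists hold pooled regions with no value per replicate. No difference below could therefore be set against the spread between samples, the read depth is unknown, and every test compares counts of regions between lists. By name the lists hold genotype-specific regions, so a promoter with polymerase in both genotypes need not be in any of them. The cKO and cWT lists were of very unequal length for the other antibodies: Pol II had 4647 cKO and 394 cWT regions, Pol II Ser5P had 6163 and 127, H3K27ac had 847 and 6995, and Pu.1 had 1017 and 44.

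Promoters of 8 genes show where the listed H3K4me3 lies. They belong to the sites of smallest deposited p-value that overlap a promoter window, and each runs from 250 bases before to 50 bases after the RefSeq gene start (GRCm38.p6, 1-based), 5′ to 3′ on the gene's strand. Capitals mark the bases inside the listed cKO H3K4me3 region.
Anxa4, chr6:86793535-86793834, minus strand: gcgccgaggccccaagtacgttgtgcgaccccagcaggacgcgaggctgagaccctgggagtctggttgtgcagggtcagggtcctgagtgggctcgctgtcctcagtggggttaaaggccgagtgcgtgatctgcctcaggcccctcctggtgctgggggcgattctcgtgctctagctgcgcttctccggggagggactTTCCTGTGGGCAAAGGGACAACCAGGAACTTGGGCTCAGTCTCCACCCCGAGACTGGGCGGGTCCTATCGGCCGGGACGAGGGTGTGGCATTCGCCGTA
Mia3, chr1:183369516-183369815, minus strand: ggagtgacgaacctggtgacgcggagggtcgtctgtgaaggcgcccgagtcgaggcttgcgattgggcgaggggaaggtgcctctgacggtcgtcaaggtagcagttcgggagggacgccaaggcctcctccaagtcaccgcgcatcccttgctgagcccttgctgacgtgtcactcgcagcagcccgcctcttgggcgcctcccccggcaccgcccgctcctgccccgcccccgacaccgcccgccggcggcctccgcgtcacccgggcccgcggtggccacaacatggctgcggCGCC
Arpc1a, chr5:145083619-145083918, plus strand: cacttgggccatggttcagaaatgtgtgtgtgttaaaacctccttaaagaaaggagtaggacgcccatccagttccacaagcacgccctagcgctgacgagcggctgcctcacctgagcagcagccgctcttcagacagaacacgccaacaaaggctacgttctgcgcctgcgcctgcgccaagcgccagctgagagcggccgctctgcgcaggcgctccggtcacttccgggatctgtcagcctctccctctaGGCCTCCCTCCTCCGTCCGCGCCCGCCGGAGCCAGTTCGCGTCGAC
Rab5a, chr17:53478984-53479283, plus strand: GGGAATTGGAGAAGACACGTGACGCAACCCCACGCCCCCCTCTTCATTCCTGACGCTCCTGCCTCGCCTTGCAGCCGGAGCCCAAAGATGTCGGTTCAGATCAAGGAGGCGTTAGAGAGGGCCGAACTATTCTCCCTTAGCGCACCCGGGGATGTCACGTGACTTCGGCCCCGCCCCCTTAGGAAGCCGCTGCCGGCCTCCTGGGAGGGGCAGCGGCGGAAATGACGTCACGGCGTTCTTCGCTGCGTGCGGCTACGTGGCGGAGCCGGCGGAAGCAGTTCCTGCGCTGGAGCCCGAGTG
Lig1, chr7:13278576-13278875, plus strand: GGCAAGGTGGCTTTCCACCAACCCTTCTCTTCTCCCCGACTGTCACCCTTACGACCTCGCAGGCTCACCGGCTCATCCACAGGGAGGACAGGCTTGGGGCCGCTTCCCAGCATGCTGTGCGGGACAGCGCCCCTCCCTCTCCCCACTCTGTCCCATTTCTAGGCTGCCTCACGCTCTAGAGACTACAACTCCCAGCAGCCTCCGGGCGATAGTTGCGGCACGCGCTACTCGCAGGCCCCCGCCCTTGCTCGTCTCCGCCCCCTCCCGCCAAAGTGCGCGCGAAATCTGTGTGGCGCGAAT
Irf2bpl, chr12:86884765-86885064, minus strand: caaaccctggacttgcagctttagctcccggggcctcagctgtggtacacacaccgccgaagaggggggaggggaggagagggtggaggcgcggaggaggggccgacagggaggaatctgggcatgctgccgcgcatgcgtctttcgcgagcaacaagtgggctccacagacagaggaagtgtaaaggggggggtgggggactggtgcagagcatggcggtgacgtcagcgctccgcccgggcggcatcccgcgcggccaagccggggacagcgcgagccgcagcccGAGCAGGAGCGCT
Larp7, chr3:127553300-127553599, minus strand: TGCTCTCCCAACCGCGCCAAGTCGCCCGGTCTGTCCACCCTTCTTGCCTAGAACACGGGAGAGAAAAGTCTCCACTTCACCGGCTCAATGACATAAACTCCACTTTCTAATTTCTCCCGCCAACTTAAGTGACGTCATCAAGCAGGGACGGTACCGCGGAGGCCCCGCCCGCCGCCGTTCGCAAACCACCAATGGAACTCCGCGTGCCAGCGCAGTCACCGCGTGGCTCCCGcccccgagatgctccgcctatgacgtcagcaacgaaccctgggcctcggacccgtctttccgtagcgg
Ccar1, chr10:62792319-62792618, minus strand: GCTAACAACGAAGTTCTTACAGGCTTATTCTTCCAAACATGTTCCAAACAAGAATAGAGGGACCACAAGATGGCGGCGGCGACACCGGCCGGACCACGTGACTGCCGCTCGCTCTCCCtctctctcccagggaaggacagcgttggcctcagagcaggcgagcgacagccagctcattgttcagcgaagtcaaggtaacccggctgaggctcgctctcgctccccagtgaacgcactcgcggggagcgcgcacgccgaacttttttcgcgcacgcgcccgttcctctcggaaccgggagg
In Anxa4 (a calcium-dependent membrane-binding annexin), Mia3 (a factor for collagen export from the endoplasmic reticulum), Arpc1a (an Arp2/3 actin subunit) and Irf2bpl (a transcriptional regulator), the capitals stand at the right edge, from 99 bases in Anxa4 to 4 in Mia3. There the H3K4me3 region begins near the start site and runs into the gene. All 300 bases are covered in Rab5a (an early endosome GTPase) and Lig1 (a DNA ligase of replication and repair). In Larp7 (a 7SK RNA-binding protein) and Ccar1 (a transcriptional coactivator) the capitals stand at the left, with 232 and 118 bases covered. The Larp7 site is shared with Zgrf1, a neighbouring gene. Its midpoint lies nearer the Zgrf1 start (-5 bp, negative being upstream) than the Larp7 start (-135 bp).

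The letters of these 8 promoters are rich in G and C. Their GC content ran from 61.0% in Ccar1 to 72.0% in Mia3, beside a median of 56.3% over 21263 promoters of coding genes. Their ratio of observed to expected CpG ran from 0.636 in Anxa4 to 1.12 in Larp7, beside a median of 0.567. On either strand, the letters GGGCGG (a GC box) were found in 6 of the 8, all but Arpc1a and Ccar1, and 46.2% of all 21263 promoters hold them. TGACGTC, part of a cyclic AMP response element, was found in Rab5a, Irf2bpl and Larp7, and 3.84% of all promoters hold it. CCAAT was found in Mia3, Rab5a and Larp7, and 38.2% of all promoters hold it. GAGGAAG, the core bound by Pu.1, was found only in Irf2bpl among the 8, beside 13.6% of all promoters. All 8 promoters lie above both medians, of GC content and of CpG ratio, so the shares over all promoters are not a like background for them. A match describes letters and not binding. The same search was not read over all sites, because a RefSeq promoter was at hand for 658 of the 826 genes at the sites (79.7%) and a start for 554 of the 702 sites (78.9%), under the 80% set for such a check, so the comparison of CpG-rich promoters is void. The other genes, those of chromosome 18 among them, were not used here.

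Where strand was known, the sites lay at gene starts. Of 574 sites with a known strand, 564 (98.3%) were within 2 kb of a start and 10 were at a downstream end only. A start to measure from was at hand for 554 of the 702 sites (78.9%), under the same 80% limit, so the positions that follow describe those 554 and are compared with no other set. Of them, 374 (67.5%, exact 95% interval 63.4 to 71.4%) had their midpoint 0 to 500 bp downstream of it and 84 (15.2%) up to 500 bp upstream. The median midpoint was 185 bp downstream, with quartiles of 57.9 and 324 bp. Over all 702 sites, which needs no strand, 602 midpoints (85.8%, exact 95% interval 82.9 to 88.3%) lay inside the gene with the nearest end, and the median midpoint was 235 bp inside.

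The other H3K4me3 gene-end regions also stood mostly at starts. Regions at starts made up 98.3% of the cKO polymerase-free sites, against 97.6% (243 of 249) of cKO gene-end regions with polymerase and 97.3% (358 of 368) of cWT polymerase-free regions. No difference was detectable (two-sided Fisher's exact test, adjusted p = 0.779 against cKO regions with polymerase; difference 0.667 points, 95% interval -1.27 to 3.53). Midpoints inside the gene made up 85.8% of the cKO polymerase-free sites, 84.0% of cKO regions with polymerase and 82.4% of cWT polymerase-free regions. Within 500 bp of a gene end, on either side, lay 508 of the 702 cKO polymerase-free sites (72.4%), against 250 of 293 cKO regions with polymerase (85.3%) and 305 of 438 cWT polymerase-free regions (69.6%). The sites thus reached farther from an end than cKO regions with polymerase, a difference that was not tested because the distance to an end is part of the rule.

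**Figure D1:**
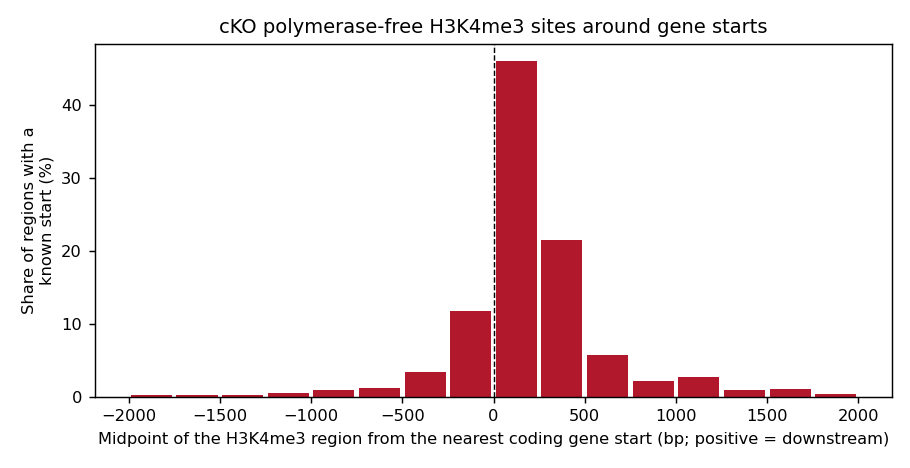
Distance from the nearest coding gene start to the midpoint of each cKO polymerase-free site (horizontal axis, bp in bins of 250, positive is downstream) and the share of sites in each bin (vertical axis, %), for the 554 sites with a start at hand. The bars are highest just downstream of the start, where 67.5% of these sites lie within 500 bp.

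The deposited values of the sites covered a wide range. Their width ran from 169 to 1259 bp with a median of 382 bp (quartiles 309 and 501), against 413 bp in cKO regions with polymerase and 387 bp in cWT polymerase-free regions. The authors' signal, on a scale not given in the sources used here, ran from 4.86 to 27.7 with a median of 15.04. The deposited p-value, whose test is not given either, ran from 0.0250 to 0.960 with a median of 0.859. A deposited p-value under 0.05 was held by 1 site, one under 0.5 by 44, and 697 of the 702 shared the deposited q-value of 0.949. The deposited score follows from the p-value and adds nothing to it. These values come from the same list as the choice of sites and describe it.

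The 10 sites of smallest p-value were headed by Adgrf2, an adhesion G-protein-coupled receptor gene, with a p-value of 0.0250 and a signal of 26.99 at chromosome 17, 42743978 to 42744397. Next were Anxa4 (p-value 0.107, signal 23.9) and Peg10, an imprinted gene of retrotransposon origin (p-value 0.119, signal 25.2). This Peg10 site lies outside the gene, beyond its upper coordinate, and 32 bp from a cKO Pol II Ser5P region. Mia3, Arhgap12 (a GTPase-activating protein), Sub1 (a transcriptional coactivator), Txnl4a with Gm16286 (a spliceosome protein and a predicted gene), C9orf72, Arpc1a and Plscr1 (an interferon-induced phospholipid scramblase) followed, with p-values between 0.161 and 0.241. The widest sites were at Lratd2 (1259 bp), Idh3g with Ssr4 (1156 bp), Egr1 (1091 bp), Prag1 (1086 bp) and Creb1 (1081 bp). Creb1 encodes the factor that binds cyclic AMP response elements and Egr1 an immediate-early zinc finger factor. Width and p-value picked different genes: the 5 widest sites had p-values between 0.675 and 0.895.

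**Figure D2:**
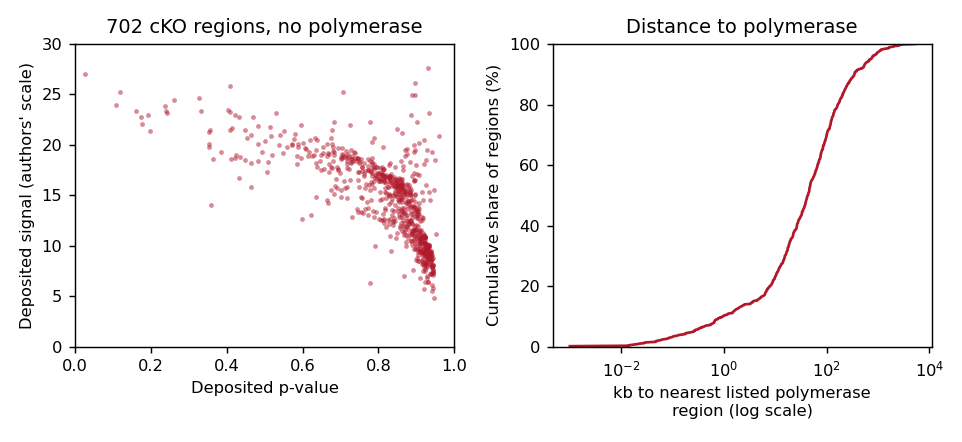
Left, deposited p-value (horizontal) against deposited signal on the authors' scale (vertical) for the 702 cKO polymerase-free sites, 1 point each; Adgrf2 is the point farthest left, at 0.0250. Right, cumulative share of the sites (%) by distance to the nearest listed polymerase region (kb, log axis); 69.8% lie within 100 kb and 10.1% within 1 kb.

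The sites stood at 826 genes, since 134 sites (19.1%) were at the ends of more than 1 gene and up to 3 genes shared a site. Compact pairs of genes are examples: Idh3g (a mitochondrial dehydrogenase subunit) with Ssr4 (a translocon-associated protein), Stat2 with Apof, and Larp7 with Zgrf1. Sites at 2 or more genes made up 19.1% of the cKO polymerase-free sites, against 22.2% of cKO regions with polymerase (difference -3.10 points, 95% interval -8.88 to 2.25, Fisher's exact p = 0.297) and 15.5% of cWT polymerase-free regions (difference 3.56 points, 95% interval -1.03 to 7.92, Fisher's exact p = 0.130). Among regions at or below the median deposited p-value of each list, the difference from cKO regions with polymerase was -10.5 points (Fisher's exact p = 0.00824, adjusted p = 0.132). Of the 826 genes, 15 had 2 sites each, where Cenpp with Nol8 and Fkbp1b with Wdcp share theirs. At Camk2n2 (an inhibitor of the kinase CaMKII), Pdhb (a pyruvate dehydrogenase subunit), Qars (glutaminyl-tRNA synthetase), Gtf2a1 (a subunit of the general factor TFIIA) and the shared end of Cenpp and Nol8, the 2 listed regions touch end to end and carry the same signal. At Camk2n2 that signal was 19.5 in both, with p-values of 0.896 and 0.929. In all, 12 cKO polymerase-free sites touch such a neighbour, so the region count is slightly above the count of separate places. Peg10, Jag1 (a Notch ligand), Foxn3 (a forkhead repressor) and Zfp658 had 2 sites that stand apart. The Peg10 sites had signals of 25.2, beyond the upper end of the gene, and 8.11, at the lower end, which is shared with Sgce.

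The distance to the nearest polymerase region varied widely, and no distance expected by position alone was computed. The median distance from a cKO polymerase-free site to the nearest region of the 4 polymerase lists was 43.6 kb (quartiles 11.5 and 126 kb), against 31.2 kb for the cWT polymerase-free regions. Within 1 kb lay 71 sites (10.1%), within 10 kb 162 (23.1%), and within 100 kb lay 490 (69.8%). The nearest region came from the cKO Ser5P list for 355 sites and from the cKO Pol II list for 322, and these are by far the longest polymerase lists. The rule uses overlap with these same lists, so the distances are a description. Of the 826 genes, 212 (25.7%) nevertheless had a listed polymerase region elsewhere in the gene or within 2 kb of it. Over all 21887 coding genes the share was 27.2%. The rule leaves out sites that overlap these same lists, which bears on the first share only, so nothing is read from the 2 shares together.

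Sites near a limit of the rule were these. Among those farthest from a gene end were Atpif1 at 1956 bp, Pdzk1ip1 at 1950 bp, Vcan at 1915 bp and P2ry12 at 1908 bp, and the 5 nearest excluded regions lay 2107 to 2212 bp from an end. The Patz1 site abuts a cKO Pol II region with no base shared, and the next closest were Zfp658 and Lgals9, whose first or last base stood 14 positions from a polymerase region. Excluded with the smallest overlaps were regions at Chp1 with Exd1 (4 bp), Cops2 with Galk2 and Pde3b (5 bp each), Eef2kmt (9 bp) and Cir1 with Scrn3 (11 bp).

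H3K27ac was the most frequent other mark at the sites, and it came mostly from the cWT list. Of the 702 sites, 16 (2.28%) overlapped a cKO H3K27ac region and 119 (16.95%) a cWT H3K27ac region, and 1 of these overlapped both. The cKO H3K27ac list holds 847 regions, against 6995 in the cWT list. By gene, 47 of the 826 (5.69%) had a cKO H3K27ac region in the gene or within 2 kb, beside 2.99% of all coding genes, and 272 (32.9%) had a cWT one, beside 18.3%. No other listed H3K27ac, Pu.1 or cWT H3K4me3 region overlapped 540 of the sites.

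Under cKO H3K27ac stood sites at Asb3 with Erlec1 (401 bp), Slc35d2 (209 bp), Smg8 (a nonsense-mediated decay factor, 295 bp) and Tmed3 (179 bp), among others. Among the sites under cWT H3K27ac, Peg10 overlapped by 283 bp, Plscr1 by 481 bp, Lig1 with Zswim9 by 297 bp, and Mrps33 (a mitochondrial ribosomal protein) by 345 bp. Gca (grancalcin, a calcium-binding protein of leukocytes), Relb (an NF-kB subunit, at a site shared with Clasrp), 1700030J22Rik, Tmem94, Selenop (a selenium transport protein) and Thnsl2 followed by p-value. At Plscr1 the overlap spans the whole H3K4me3 region.

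No difference in H3K27ac overlap was detectable between the sets of regions. The cKO H3K27ac share was 2.28% at cKO polymerase-free sites, against 3.07% at cKO regions with polymerase (Fisher's exact p = 0.506) and 2.28% at cWT polymerase-free regions (p = 1, exact). The cWT H3K27ac share was 16.95% at cKO polymerase-free sites, against 15.02% (44 of 293) at cKO regions with polymerase (difference 1.93 points, 95% interval -3.30 to 6.62, Fisher's exact p = 0.511) and 15.1% (66 of 438) at cWT polymerase-free regions (difference 1.88 points, 95% interval -2.60 to 6.13, Fisher's exact p = 0.410). Of the 16 tests run in all, none had a p-value under 0.05 before or after Benjamini-Hochberg adjustment. This says nothing for the 2 void CpG tests, nor for the 2 on the word primary in the deposited names, which no cKO polymerase-free site and no cKO region with polymerase carries.

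Pu.1 regions of cKO overlapped 11 sites (1.57%), against 7 of 293 cKO regions with polymerase (2.39%, Fisher's exact p = 0.434) and 7 of 438 cWT polymerase-free regions (1.60%, exact p = 1). No site overlapped the 44 cWT Pu.1 regions. Adgrf2, the site of smallest p-value, overlapped a cKO Pu.1 region by 345 bp. Others were at Tbl2, Uspl1, Slc31a1 (a copper importer) with Fkbp15, Ddx42 with Ccdc47, Zfp710, Plac8, Wdr89, Mrps18b with Ppp1r10, and Cx3cr1. Cx3cr1, the fractalkine receptor used to mark microglia, is shown because its site lies wholly inside the Pu.1 region, with 187 bp shared. It was chosen after its values were seen. Capitals again mark the H3K4me3 region.
Cx3cr1, chr9:120068247-120068546, minus strand: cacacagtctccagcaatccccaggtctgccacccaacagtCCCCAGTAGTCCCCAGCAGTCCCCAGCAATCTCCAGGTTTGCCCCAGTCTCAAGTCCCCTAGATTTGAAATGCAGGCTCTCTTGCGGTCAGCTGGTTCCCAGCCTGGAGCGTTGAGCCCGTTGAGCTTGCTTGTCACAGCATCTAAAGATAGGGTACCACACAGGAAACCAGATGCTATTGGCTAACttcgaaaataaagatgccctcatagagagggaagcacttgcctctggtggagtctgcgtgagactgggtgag
The Cx3cr1 region sits in the middle of the window and ends before the start site. It had a signal of 6.41 and a deposited p-value of 0.924. The letters GAGGAAG were not found on either strand of this window, whereas GAGGAAG was found in the Itgam window. That absence says nothing about the factor.

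Chromosome X held 26 of the sites (3.70%), against 19 of 293 cKO regions with polymerase (6.48%; difference -2.78 points, 95% interval -6.39 to 0.0555, Fisher's exact p = 0.0651, adjusted p = 0.743) and 16 of 438 cWT polymerase-free regions (3.65%, exact p = 1). Chromosome 6 held the most sites, 54 (7.69%, beside 5.14% of coding genes), and chromosome Y held 1.

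**Figure D3:**
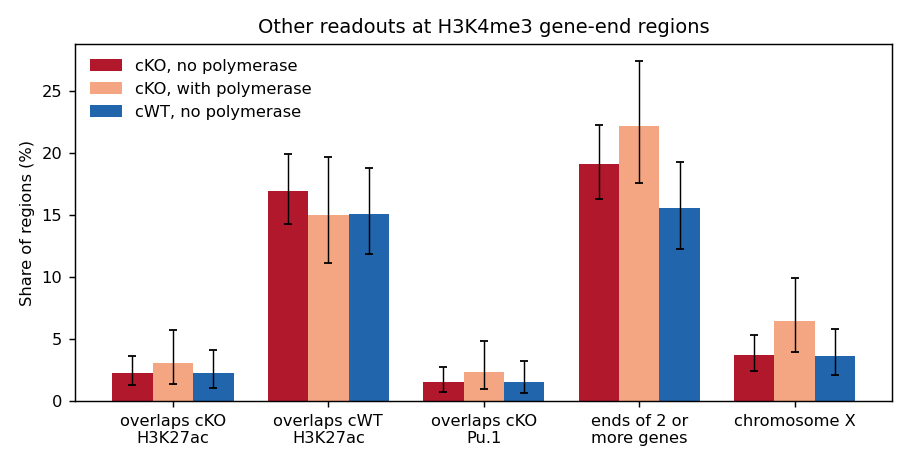
Share of regions (vertical axis, %) that overlap a cKO H3K27ac, cWT H3K27ac or cKO Pu.1 region, stand at the ends of 2 or more genes, or lie on chromosome X, for 702 cKO polymerase-free sites, 293 cKO regions with polymerase and 438 cWT polymerase-free regions; error bars are exact 95% intervals that cover counting error only. The intervals overlap in every comparison, with cWT H3K27ac at 16.95, 15.02 and 15.1%.

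Some sites had a cWT H3K4me3 counterpart next to them. Of the 702 sites, 23 overlapped a cWT H3K4me3 region and 45 had one within 1 kb. By gene, 55 had both a cKO and a cWT polymerase-free region. They were 6.66% of the 826 cKO genes, beside 2.27% of all coding genes with a cWT polymerase-free region. They were also 11.1% of the 497 cWT genes, beside 3.77% of all coding genes with a cKO polymerase-free site. This overlap was not tested. In 48 of the 55 the 2 regions lay within 1 kb of each other, with a median gap of 27 bp. At Arhgap12 the cKO region (signal 22.7) and the cWT region (signal 26.6) overlapped by 171 bp. At Mat2a (methionine adenosyltransferase) they overlapped by 66 bp. Rab5a is not among the 55: its cKO site overlapped a cWT H3K4me3 region by 19 bp, but that cWT region overlaps a cKO Pol II region. Ccnd1 and Cdk6, which form a kinase complex of the G1 phase, both had regions in each genotype, overlapping at Ccnd1 and 558 bp apart at Cdk6. Ddx3x (an RNA helicase), Dusp7 (a MAP kinase phosphatase), Tnfrsf11a (the receptor RANK) and Slc38a2 (an amino acid transporter) were further genes with overlapping regions, and at Ctss (cathepsin S) the regions were 392 bp apart. At Dusp7 the cKO region lies between 2 cWT regions and overlaps both.

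Gene lists were described by how many members had a cKO polymerase-free site. A gene counts when a site stands at either of its ends, so some sites lie nearest the start of a neighbouring gene. Over all 21887 coding genes the share was 3.77% for these sites, 1.63% for cKO regions with polymerase and 2.27% for cWT polymerase-free regions. The lists were chosen with earlier results of these data known, so these counts are a description and no test was made.

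Microglial identity genes appeared in both genotypes. Of 38 homeostatic microglia genes 7 (18.4%) had a cKO polymerase-free site, and 6 (15.8%) had a cWT polymerase-free region. A cKO H3K4me3 region under polymerase was at 0 of them, close to the background of 1.63%. Ctss, the lysosomal protease, had a signal of 15.8 and a p-value of 0.718 with its midpoint 1041 bp downstream of the start. Siglech (a sialic-acid-binding receptor of microglia) had a signal of 11.5, Rnase4 (a secreted ribonuclease, at a site shared with Ang) 10.5, and Itgam (the integrin CD11b) 9.03. Irf8, a myeloid transcription factor, had a signal of 15.6 with a p-value of 0.948. The P2ry12 site differs from the rest: P2ry12, the purinergic receptor that marks resting microglia, had its site 44656 bp downstream of its start, by the other end of the gene, where 250 bp lay under cWT H3K27ac. The deposited p-values of the 7 ran from 0.718 to 0.948. These genes did not all lack listed polymerase nearby. The nearest polymerase region, from a cKO list each time, lay 588 bp from the Irf8 site, 1038 bp at Siglech and 1502 bp at Cx3cr1. It lay 3649 bp away at Ctss, 6188 bp at P2ry12, 7628 bp at Rnase4 and 52421 bp at Itgam.

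Some genes of the interferon response had cKO polymerase-free sites. Of 38 such genes 6 (15.8%) had one, beside a background of 3.77%. A cKO region under polymerase was at 0 (background 1.63%), and a cWT polymerase-free region at 0 (background 2.27%). In a list of 38 genes, 0 is close to both of these backgrounds. Stat2 and Irf9 encode partners in the complex ISGF3, which carries the interferon signal to DNA. Stat2 had a signal of 20.5 and a p-value of 0.639 with its midpoint 202 bp downstream of the start, at a site shared with Apof. Irf9 had a signal of 15.2 and a midpoint 289 bp upstream, at a site shared with Rnf31. Oas1a (an RNA-sensing synthetase) had a signal of 10.7, Ddx58 (the RNA sensor RIG-I) 10.3, Usp18 (a protease that removes ISG15) 10.9 and Xaf1 (a pro-apoptotic protein) 9.07. At Ddx58 and Xaf1 181 and 402 bp lay under cWT H3K27ac. The nearest listed polymerase region was 28460 bp away at Ddx58 and 38661 bp at Irf9, under the median of 43.6 kb over all sites. It was 81398 bp away at Stat2, 85858 bp at Xaf1, 161956 bp at Usp18 and 283686 bp at Oas1a.

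The interferon-stimulated response element is shown as letters because it is the DNA that ISGF3 binds. The windows below hold a match to GAAA, any 2 bases and GAAA on either strand within the RefSeq promoter, with the match in capitals. Such a match was found in 3.35% of all 21263 promoters.
Stat2, chr10:128270268-128270293, plus strand: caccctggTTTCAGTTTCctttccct
Oas1a, first match, chr5:120907528-120907553, minus strand: cttctcggGAAATGGAAActgaaaat
Oas1a, second match, chr5:120907522-120907547, minus strand: gggaaatgGAAACTGAAAatctactt
Ddx58, chr4:40239806-40239831, minus strand: tgaggcagTTTCGATTTCctatggcc
Ctss, chr3:95526757-95526782, plus strand: ctttaaatGAAACCGAAAtgaaagtt
Stat2, Oas1a and Ddx58 hold it among the interferon genes with a site and a promoter at hand, and Irf9 and Xaf1 do not. The share among interferon genes without a site is not given here, so these matches cannot be tied to the sites. The 2 Oas1a matches overlap. Ctss, itself on the homeostatic list, also holds a match. In none of these windows is the match inside the listed H3K4me3 region.

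Myeloid transcription factors were at 6 of 32 genes (18.8%) in cKO and 7 (21.9%) in cWT. They were Klf2, Jund, Egr1, Klf6, Junb and Irf8, mostly immediate-early or Krüppel-like factors. Klf2 and Egr1 overlapped cWT H3K27ac by 223 and 772 bp. Their signals ran from 6.79 at Junb to 15.6 at Irf8. Disease-associated microglia genes had 0 of 30 in cKO and 1 in cWT. Inflammatory NF-kB genes had 1 of 43 (Relb, whose site lies nearest the start of Clasrp) in cKO and 3 in cWT.

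Of the 30 lists, zinc finger genes of the Zfp series differed most in number of genes between the genotypes. Of 397 genes, 37 (9.32%) had a cKO polymerase-free site, against 8 (2.02%, near the background of 1.63%) with a cKO region under polymerase and 6 (1.51%, under the background of 2.27%) with a cWT polymerase-free region. Most encode DNA-binding factors of the C2H2 type, many of them repressors of transposable elements. Zfp36 is an exception, an RNA-binding protein that destabilises cytokine transcripts, and its signal of 4.86 was the lowest of the group. Those of smallest p-value were Zfp442 (signal 21.7, p-value 0.413), Zfp973 (15.9, 0.686), Zfp105 (19.7, 0.695) and Zfp799 (18.8, 0.701). Their midpoints lay between 17.5 and 227 bp downstream of the start. The 37 genes had 37 regions on 14 chromosomes, with 8 of 93 such genes of chromosome 7 and 4 each on chromosomes 2, 6 and 17. Of 32 with a known strand 31 were at a start. Their signal had a median of 13.6 and their width a median of 314 bp. A cWT H3K27ac region overlapped 6 of them (Zfp637, Zfp422, Zfp658, Zfp626, Zfp128 and Zfp677), no cKO H3K27ac region overlapped any, and none had a cWT H3K4me3 region within 1 kb. Many Zfp genes are close copies of one another, and the placing of reads that match several copies is unstated, so the gene named at such a site is uncertain. Without regions under 300 bp the count was 24.

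Several housekeeping groups also held sites, beside backgrounds of 3.77% for cKO and 2.27% for cWT polymerase-free regions. Mitochondrial ribosomal proteins had 9 of 78 (11.5%) in cKO, led by Mrpl19 (signal 24.4, p-value 0.262), Mrps35 (21.5, 0.355), Mrps33 (23.0, 0.423) and Mrpl42 (21.4, 0.552), against 7 (8.97%) in cWT. DNA repair and replication had 5 of 57 (8.77%) in cKO and 2 (3.51%) in cWT, and a cKO region under polymerase was at 2 (3.51%). Those in cKO were Lig1, Pole (a replicative polymerase), Ercc2 (a helicase of TFIIH), Lig4 (the ligase of end joining) and Rpa2. The Lig4 site lies nearest the start of Abhd13. The transcription machinery had 5 of 56 (8.93%) in cKO and 1 (1.79%, near the background) in cWT. A cKO region under polymerase was at 4 of the 56 (7.14%, background 1.63%), so this list is not particular to the polymerase-free sites. The 5 genes with a cKO polymerase-free site were Polr2a, the large subunit of Pol II, with Polr2f, Gtf2a1, Aff1 (a super elongation complex scaffold) and Nelfe (a pausing factor). Polr2a had a signal of 10.3 and its midpoint 455 bp upstream of the start. Ubiquitin-specific proteases had 5 of 56 (8.93%) in cKO, among them Usp36 and Usp18, and 1 (1.79%, near the background) in cWT. The Tmem genes, named only for predicted membrane spans, had 15 of 238 (6.30%) in cKO, led by Tmem161b and Tmem135, and 3 (1.26%) in cWT. The Tmem135 site lies nearest the start of Fzd4.

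The remaining lists are given beside the same cKO background of 3.77%. Aminoacyl-tRNA synthetases had 3 of 36 (8.33%: Cars2, Qars, Hars2) and splicing and mRNA processing 4 of 58 (6.90%: Prpf8, Cpsf3, Snrpf, Ddx5). Translation initiation factors had 3 of 56 (5.36%: Eif2b4, Eif3l, Eif2b5) and chromatin modifiers 3 of 59 (5.08%: Crebbp, Men1, Hcfc1). Nearer the background were oxidative phosphorylation with 4 of 87 (4.60%), F-box genes with 3 of 78 (3.85%) and cytosolic ribosomal proteins with 3 of 85 (3.53%). Solute carriers had 12 of 375 (3.20%), Rab GTPases 2 of 69 (2.90%: Rab5a, Rab3d), RIKEN-named genes 12 of 421 (2.85%) and the proteasome 1 of 48 (2.08%: Psmb4). The Cpsf3 and Eif2b4 sites lie nearest the starts of Iah1 and Snx17. Predicted Gm genes had 23 of 1327 (1.73%). The microRNA machinery had 0 of 14, and olfactory receptors had 0 of 1106, under the background. Lists of markers of other cells are short, and their counts lay about the background of 3.77%: astrocytes had 0 of 15, neurons 0 of 16, and endothelial and mural cells 0 of 15. The oligodendrocyte list had 1 of 14, Mbp (signal 18.8, p-value 0.436), and other leukocytes 1 of 19, Cd79a, whose site lies nearest the start of Arhgef1. The part of other cells in the sites was not tested.

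**Figure D4:**
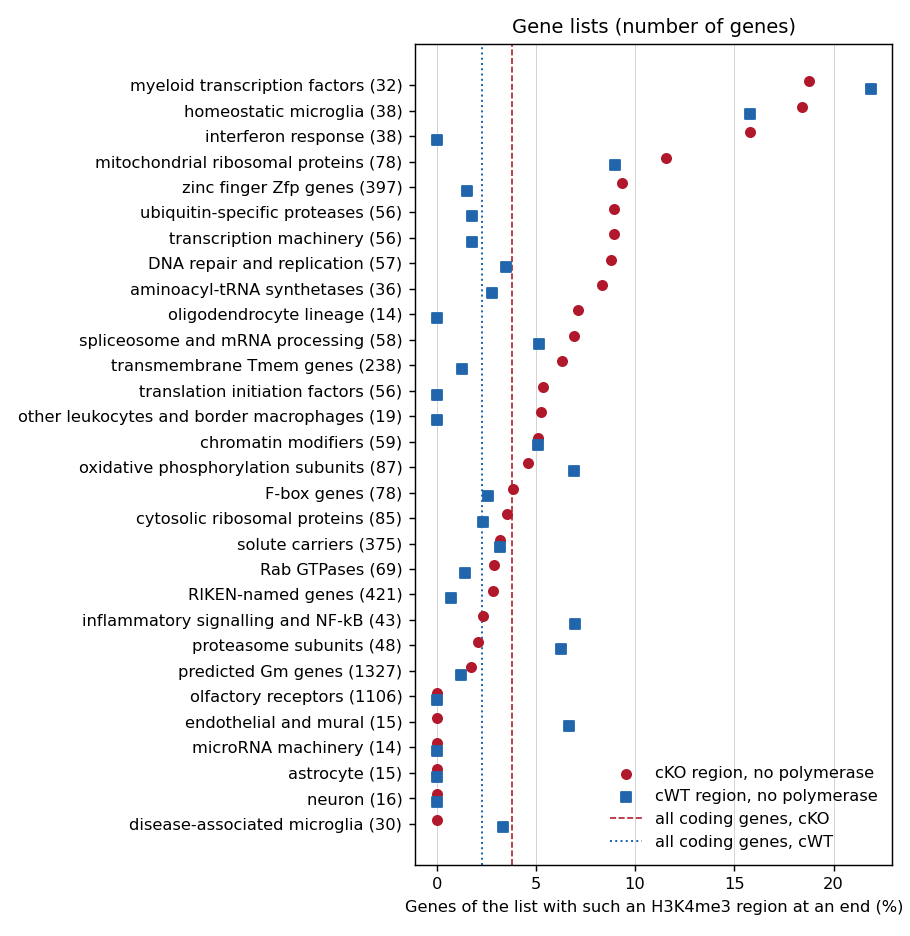
Share of the genes of each of 30 lists (rows, with the number of genes) that have a polymerase-free H3K4me3 region at an end (horizontal axis, %), as circles for cKO and squares for cWT; vertical lines give the shares over all coding genes, 3.77% for cKO (dashed) and 2.27% for cWT (dotted). Interferon genes (15.8% and 0%) and Zfp genes (9.32% and 1.51%) have cKO circles far to the right of the cWT squares, while homeostatic genes (18.4% and 15.8%) lie to the right in both genotypes. For the 38 interferon genes, the cWT share of 0% is close to the dotted line.

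The counts by list depend on the weaker regions of the H3K4me3 lists. Restricted to regions at or below the median deposited p-value of each list, 334 sites were left. In cKO they held 2 interferon genes, 1 homeostatic gene and 14 Zfp genes, against 0, 2 and 4 in cWT.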

How the data were processed

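Sorted microglia of 2 genotypes were profiled with 5 antibodies (30 samples, 10 groups of 3 replicates, from the sample titles). The series text calls the assay ChIP-seq and mentions 4 mice, while the labels' protocol describes CUT&Tag and gives 1 antibody catalogue number for H3K27ac, Pol II and Pol II Ser5P and another for H3K4me3 and Pu.1. HOMER 4.11, bedtools 2.30.0, MACS2 2.2.7.1 and Bowtie2 2.4.4, with the builds mm10 and GRCm38, are named per the submitters' processing notes. The pooling of replicates and the choice of genotype-specific regions are unstated.

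The authors deposited 10 lists of regions, and each region carries 4 numbers: signal, score, p-value and q-value. The deposited score equals the negative log2 of the p-value times 125, to within 1 for every site, and is capped. The scale of the deposited signal and the test behind the deposited p-value are unstated, so both only describe or rank regions within a list. Depth per sample is unknown, and intervals cover the counting of regions only.

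Regions were compared with the ends of 21887 protein-coding genes on chromosomes 1 to 19, X and Y in a RefSeq table of GRCm38.p6, with an overlap of at least 1 bp. Strand came from RefSeq promoter sequences of 17492 genes. Exons and UTRs were not annotated. The 702 sites, 438 cWT regions and 293 cKO regions with polymerase were compared by Fisher's exact test (two-sided), with Benjamini-Hochberg adjustment over 16 tests (threshold 0.05). Intervals of 95% are exact for shares and Newcombe's for differences. The members and gene lists were chosen with earlier results of these data known. Named genes are the 10 sites of smallest p-value, genes with 2 sites, up to 10 sites per overlapping list, up to 4 per gene list, the 5 widest, genes with regions in both genotypes and those at the limits of the rule. Further named members were chosen after their values were seen, and some that the rule names are not reported here.

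The functions were tested on simulated data. Alternatives changed the window, overlap, p-value, width, merging, gene set, polymerase lists and chromosomes, and 2 were added after the data were seen: including mitochondrial genes, and leaving out H3K4me3 regions that overlap the other genotype's. Python 3.11.15, numpy 2.4.6, pandas 2.3.3, scipy 1.17.1 and matplotlib 3.10.9 were used.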

Additional observations from a re-analysis of the deposited data

How the results depend on the processing

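Across 12 alternatives the number of cKO polymerase-free sites ran from 334, with regions at or below each list's median p-value, to 780. Of 178 recomputed Fisher's exact tests none had an adjusted p-value under 0.05 (smallest 0.132). The adjustment was made within each alternative and not over all 178. Without adjustment 5 were under 0.05. Of the 178, 153 kept their direction and 25 changed it, none of these past the threshold. The cause was not tested. The 5 were the share at 2 or more genes (-10.5 points against cKO regions with polymerase at low p-values, p = 0.00824 by Fisher's exact test; 5.28 and 5.81 against cWT polymerase-free regions with a 1 kb window and without regions under 300 bp) and the chromosome X share against cKO regions with polymerase (-3.13 both with all genes and without regions that overlap the other H3K4me3 list). The changed differences, all in percentage points of cKO polymerase-free sites minus the other set, were as follows. Against cWT polymerase-free regions, the cKO H3K27ac share differed by 0.144 with a 5 kb window, 0.865 at low p-values, 0.0774 with regions within 1 kb merged, 0.251 with all genes, 0.130 with cKO polymerase lists only and 0.135 with mitochondrial genes. The cWT H3K27ac share differed by -1.08 where overlaps had to cover 50% of a region. The Pu.1 share differed by 0.129 with a 5 kb window, 0.0182 with no polymerase within 1 kb and 0.494 with all genes. The gene-start share differed by -0.447 with a 5 kb window and -0.457 without regions under 300 bp. The share at 2 or more genes differed by -2.01 with a 5 kb window and -1.27 with all genes. The chromosome X share differed by -0.565 with a 1 kb window, -0.0908 with 5 kb, -0.0103 with no polymerase within 1 kb, -1.26 at low p-values and -0.105 with merging. Against cKO regions with polymerase, overlaps over 50% gave -4.23 for cWT H3K27ac, 0.143 for cKO H3K27ac, 0.0477 for Pu.1 and 1.19 for 2 or more genes. Low p-values gave 0.569 for Pu.1, and cKO polymerase lists only gave -0.443 for gene starts. No paired analysis was possible because the lists pool the replicates, and for the same reason no replicate could be left out. Depth is unknown, so what it limits cannot be stated.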

Other observations

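With mitochondrial genes included, 1 further region joined the cKO polymerase-free sites, making 703. Of the 1331 cKO H3K4me3 regions, 2 lay on the mitochondrial genome, which carries no nucleosomes. Regions that touch end to end with the same signal occurred in the H3K4me3 lists of both genotypes, as 13 pairs in cKO and 14 pairs in cWT.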
